A study of Mus musculus with 5 samples.

Results

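Group 2 innate lymphoid cells (ILC2) of the mouse heart were examined at 18 months and at 2 months of age. They were picked from 19423 heart cells by their own RNA. A cell was a member when it held a unique molecular identifier (UMI, 1 counted RNA molecule) of at least 3 of 7 genes, Gata3, Il1rl1, Areg, Rora, Il5, Il13 and Calca, and none of Cd3d, Cd3e, Cd79a, C1qa, Cdh5 and Pdgfra. The rule found 117 members, 70 of 8035 cells at 18 months and 47 of 11388 cells at 2 months. Both groups were C57BL/6 mice with no further treatment in the labels, and the tissue was the non-cardiomyocyte fraction of the heart, freed with collagenase II and dispase II, stained with hashtag antibodies, sorted and run on the 10x 3' platform. The labels call these libraries lymphocytes, yet they also hold stromal cells and myeloid cells. The gate and the ratio at which sorted fractions were mixed are not given in the sources used here. Each age was 1 library, so no difference between ages has a replicate check, and every interval below is a 95% interval for counting error only.

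ILC2 are tissue lymphocytes with no rearranged antigen receptor on their surface. Epithelial and stromal alarm signals drive them, chiefly interleukin-33 through its receptor ST2, the product of Il1rl1, and interleukin-25 through the receptor encoded by Il17rb. Gata3 and Rora encode transcription factors they need, and their best known products are interleukin-5, interleukin-13 and the growth factor amphiregulin, encoded by Areg. In the heart they have been described mainly around vessels and in the pericardial fat. Neuropeptides such as calcitonin gene-related peptide, encoded by Calca, also act on them.

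Members were sequenced to a median of 7863 UMIs at 18 months and 6803 UMIs at 2 months, and ranged from 1666 to 15613 UMIs at 18 months and from 2851 to 17369 UMIs at 2 months. All kept cells had medians of 4433 UMIs at 18 months and 8272 UMIs at 2 months. In all, members held 554807 UMIs at 18 months and 334243 UMIs at 2 months. The libraries shared 31 barcodes among kept cells, and none of these was a member. A gene with no UMI could still lie below 5.41 CPM (UMIs of a gene scaled to the same total in each library) at 18 months and 8.98 CPM at 2 months, the level that 3 counts would give.

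The 7 genes of the rule are a description, since they chose the cells. Gata3 was found in 69 of 70 members at 18 months and 46 of 47 at 2 months, Il1rl1 in 69 and 41, and Rora in 68 and 44. The 3 genes occurred together in 66 members at 18 months and in 37 at 2 months. Gata3 stood at 802 CPM (729 to 880) at 18 months and 865 CPM (768 to 970) at 2 months, and Il1rl1 at 620 CPM (556 to 689) at 18 months and 356 CPM (295 to 426) at 2 months. Effector genes were far scarcer. Areg was found in 19 members at 18 months and 15 at 2 months, with 135 CPM at 18 months and 221 CPM at 2 months. Il5 was found in 3 members at each age, with 4 UMIs in each library, and Il13 in 1 member at 18 months and 2 at 2 months. Calca was found in 13 members at 18 months and 4 at 2 months. None of Areg, Il5, Il13 and Calca was found in 41 of 70 members at 18 months and 26 of 47 at 2 months.

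Most members sat just inside the threshold. At 18 months 44 members had 3 of the 7 genes, 20 had 4 and 6 had 5. At 2 months 35 had 3, 11 had 4 and 1 had 6. Cells just outside, with 2 of the 7 genes and none of the excluding genes, numbered 22 at 18 months and 41 at 2 months. Il7r, which encodes the interleukin-7 receptor that innate lymphoid cells carry, was found in 9 of the 22 outside cells at 18 months and 10 of the 41 at 2 months, against 44 of 44 and 29 of 35 of the members with 3 genes. The excluding genes removed more cells than they left. Of 174 cells with 3 or more of the 7 genes at 18 months, 104 held an excluding gene, and of 142 such cells at 2 months, 95 did. C1qa, a complement gene of macrophages, was in 74 of those 104 cells at 18 months and 66 of those 95 at 2 months. It was also found in 47.5% of T cells at 18 months and 39.8% at 2 months. Of the dropped cells, 23 at 18 months and 21 at 2 months held only 1 UMI of 1 excluding gene. Whether these were ILC2 was not tested.

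ILC2 identity genes outside the rule varied in how many members held them, and they are a description too, since the cells were chosen on RNA of the same libraries. Of 32 listed genes, 13 were found in over 50% of members at both ages and 8 in under 25% at both. Ptgdr2, which encodes the prostaglandin D2 receptor CRTH2, had no UMI in any of the 117 members. Il18r1, an interleukin-18 receptor gene, was in 2 members at 18 months and 0 at 2 months, Nmur1, a neuromedin U receptor gene, in 4 and 2, and Gfi1, a transcription factor gene, in 14 and 10. Others were common. The pan-leukocyte gene Ptprc was found in 69 of 70 members (98.6%) at 18 months and 42 of 47 (89.4%, 76.9 to 96.5) at 2 months. Il7r was found in all 70 members at 18 months, where the interval starts at 94.9%, and 87.2% (74.3 to 95.2) at 2 months, against 13.8% of other Ptprc+ cells at 18 months and 14.8% at 2 months, which had median depths of 5745 UMIs at 18 months and 10579 UMIs at 2 months. Il2ra, a subunit of the interleukin-2 receptor, was found in 72.9% of members at 18 months and 53.2% at 2 months, and in 5.04% of other Ptprc+ cells at 18 months and 3.83% at 2 months. Arg1, which encodes arginase-1 and is carried by ILC2 at rest, was found in 49 of 70 members at 18 months and 39 of 47 at 2 months, and in 1.86% and 2.14% of other Ptprc+ cells. Cxcr6, a chemokine receptor gene of tissue lymphocytes, was found in 84.3% of members at 18 months and 89.4% at 2 months. The genes that most set members apart from the other cells of their library also included Csf2, Ptpn13, Nrgn, Rnf128 and Tnfrsf18.

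**Figure D1:**
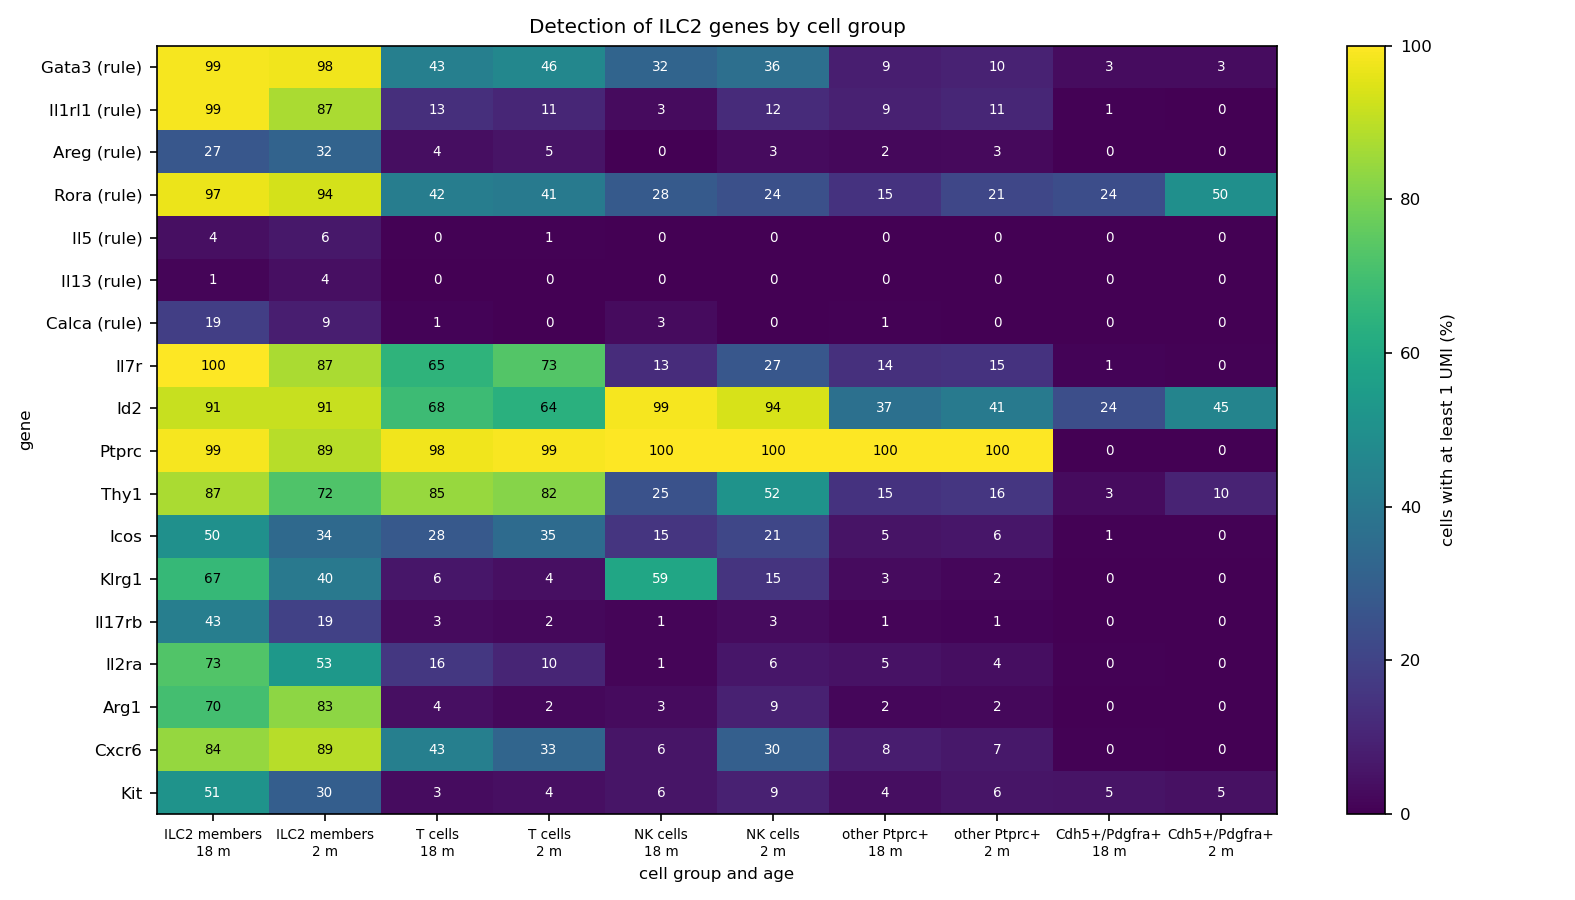
Percent of cells with at least 1 UMI of each gene (rows) in members and in 4 other cell groups (columns), with 18 months left of 2 months in each pair. Il7r was in 70 of 70 members at 18 months and 41 of 47 at 2 months, and other Ptprc+ cells had it in 13.8% and 14.8%.

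The marker lists of other lymphoid and granulocyte types differed in members. Eosinophil and group 3 innate lymphoid markers were at or near 0, while T cell markers and, at 18 months, the neutrophil markers described further below were present. Of 12 T cell markers, Cd4 and Cd8b1 had no UMI in either library. Trbc1 and Trbc2, T cell receptor beta constant genes that ILC2 can transcribe without rearranging them, were common, with 407 and 607 CPM at 18 months and 488 and 574 CPM at 2 months. Trac, the alpha constant gene, had 0 UMIs at 18 months and 2 at 2 months, while Cd3g, a CD3 chain gene that the rule does not use, was in 12 members at 18 months and 13 at 2 months. The 12 T cell markers summed to 1238 CPM at 18 months (8 of 12 with a UMI) and 1304 CPM at 2 months (9 of 12). Over all kept cells they summed to less, 654 CPM at 18 months and 203 CPM at 2 months. Tcrg-C4, a gamma constant gene, had 285 CPM at 18 months and 141 CPM at 2 months, a log2 ratio of 1.02 (0.54 to 1.52). Tcrg-C1, another gamma constant gene, went the other way, with 110 CPM at 18 months and 209 CPM at 2 months, a log2 ratio of -0.93 (-1.45 to -0.41). How far these genes share reads was not tested, so both values are uncertain. All 5 eosinophil markers and the mast cell proteases Mcpt4, Cma1, Tpsb2 and Tpsab1 were at 0 in both libraries, and the 6 markers of group 3 innate lymphoid cells had 0 UMIs at 18 months and 1 UMI at 2 months. Other genes of the mast cell and basophil lists were present. The mast cell list summed to 177 CPM at 18 months and 83.8 CPM at 2 months, and the basophil list to 75.7 and 8.98 CPM. Kit, also listed as an ILC2 identity gene, gave 72 of the 98 mast cell list UMIs at 18 months and 24 of the 28 at 2 months. Il4, also listed as an ILC2 product, gave 23 of the 42 basophil list UMIs at 18 months and 2 of the 3 at 2 months.

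Many members held markers of another type, 52 of 70 at 18 months and 39 of 47 at 2 months. This count took at least 2 markers of 1 type, or more for T and NK cells, without genes that ILC2 share. Fibroblast markers were counted in 9 members at 18 months and 34 at 2 months, and neutrophil markers in 25 and 2. A smaller number of members went against the label more strongly. All 70 members at 18 months held Il7r, but 6 of the 47 at 2 months did not. Of those 6, a pair without Ptprc held 469 and 391 UMIs of fibroblast markers together with Postn, a matrix gene of activated fibroblasts, and were the deepest members at 2 months with 17369 and 16480 UMIs. Another held 43 UMIs of glial markers, and another 51 UMIs of natural killer (NK) cell markers. At 18 months 1 member with 15613 UMIs held 767 UMIs of cardiomyocyte genes (the 7 listed markers and Myl7) beside 10 UMIs of Il7r. Over all members, the 8 fibroblast markers summed to 117 CPM at 18 months (7 of 8 with a UMI) and 3147 CPM at 2 months (8 of 8), and the 6 neutrophil markers to 4596 CPM at 18 months (6 of 6) and 65.8 CPM at 2 months (4 of 6). The richest single member held 44.6% of the fibroblast marker UMIs at 2 months and 47.9% of the neutrophil marker UMIs at 18 months. The neutrophil genes S100a8 and S100a9 had 1012 and 1279 UMIs at 18 months and 6 and 11 at 2 months. For each, the 5 richest members held most UMIs, 95.7% of S100a8 and 95.9% of S100a9. Over 23 abundant markers of stroma, muscle and myeloid or B cells at 18 months and 22 at 2 months, the level in members had a median of 3.43% of the library level at 18 months and 5.84% at 2 months. The part of these RNAs in the results was not tested beyond the sets without them. The main counts below are also given for the members with a UMI in all of Gata3, Il1rl1 and Il7r, a stricter set chosen after the values were seen, which kept 68 members at 18 months and 37 at 2 months.

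In principal components computed without the 13 genes of the rule, members lay close to one another. Among the 15 nearest cells of a member, the median number of other members was 9 at 18 months and 8 at 2 months, although members made up 0.871% and 0.413% of the cells. At least 8 of the 15 neighbours were members for 54 of 70 members at 18 months and 31 of 47 at 2 months. T cells made up 3.71% of the neighbours at 18 months and 5.53% at 2 months, against 7.84% of all cells at 18 months and 4.14% at 2 months. A further 26.6% at 18 months and 25.5% at 2 months were cells that had 3 or more of the 7 genes but also an excluding gene. No neighbour was a member for 1 cell at 18 months, the one with cardiomyocyte genes, and for 2 cells at 2 months, those with glial and NK markers.

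**Figure D2:**
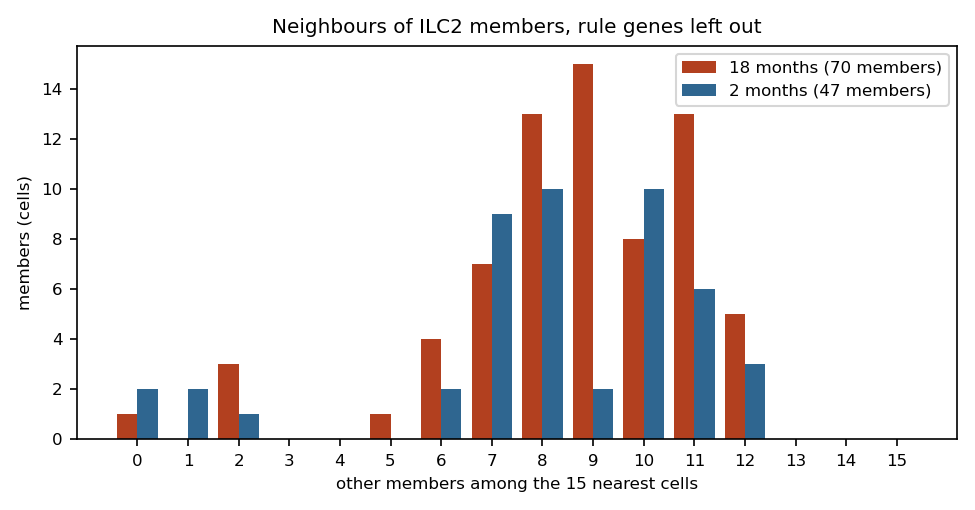
Number of members (y axis) by how many of their 15 nearest cells in the same library were members too (x axis), with 18 months left of 2 months at each value. Most members had 8 or more, 54 of 70 at 18 months and 31 of 47 at 2 months.

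Members made up 0.871% of kept cells (Clopper-Pearson interval 0.680 to 1.10) at 18 months and 0.413% (0.303 to 0.548) at 2 months, a log2 ratio of 1.08 (0.52 to 1.64). This ratio depended on the denominator. Among kept cells with a Ptprc UMI, members with Ptprc made up 1.49% (1.16 to 1.88) at 18 months and 1.15% (0.833 to 1.56) at 2 months, a log2 ratio of 0.37 (-0.21 to 0.96), which does not leave out 0. Per 100 T cells there were 11.1 members at 18 months and 9.96 at 2 months. The share of cells with Ptprc and the sort cannot be told apart from age here.

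The sex-linked RNA of members also differed between the libraries. At 18 months 54 of 70 members held Xist, the RNA of the inactive X chromosome, and no Y-linked UMI, and 10 held Y-linked UMIs alone. At 2 months 19 of 47 held Xist alone and 21 held Y-linked UMIs alone. Over all kept cells, Xist alone was in 27.7% at 18 months and 28.0% at 2 months, and in T cells it was in 35.1% at 18 months and 12.7% at 2 months, a difference in the same direction as in members. Among cells with Xist alone, members made up 2.42% at 18 months and 0.595% at 2 months. The labels do not give sex. The count of higher and lower genes was recomputed under other choices of members, depth and scale, and up to 12 such settings gave a ratio for each gene described. Where a ratio below lost its call among members with Xist alone (54 at 18 months and 19 at 2 months), the value is given beside it.

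Of 5136 genes with at least 20 UMIs over both libraries' members, 201 were higher at 18 months (3.91% of those tested) and 420 were lower (8.18%), by at least 1.5-fold with an interval that left out 0. Their median log2 ratio was -0.10, and a median-of-ratios scale moved every ratio up by 0.17, which gave 322 higher and 264 lower genes. Members with Gata3, Il1rl1 and Il7r gave 175 higher and 228 lower genes, 134 and 167 of them shared with the full set, out of 4666 tested. Members with Xist alone gave 117 higher and 217 lower genes, 69 and 145 of them shared, out of 3541 tested.

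The highest ratio among genes named by rule belonged to Ramp3, which encodes a receptor activity-modifying protein that pairs with calcitonin-family receptors (chr11:6658521-6677475 on GRCm38). It had 88 UMIs in 29 members at 18 months and 8 UMIs in 5 members at 2 months, or 159 CPM (127 to 195) at 18 months and 23.9 CPM (10.3 to 47.2) at 2 months, a log2 ratio of 2.73 (1.69 to 3.98). By hashtag, the 18-month members had 101 and 238 CPM and the 2-month members 38.4 and 13.9 CPM, so the ages did not overlap, as was the case for 14.2% of all tested genes in this direction. NK cells were also higher at 18 months, with 14.6 CPM of Ramp3 against 0 CPM at 2 months and an interval of the log2 ratio that starts at 0.22. In T cells the log2 ratio of Ramp3 was -0.57 (-0.89 to -0.25), at 18.5 CPM at 18 months and 27.5 CPM at 2 months, and in other Ptprc+ cells it was -0.12 (-0.33 to 0.09). Its partner Calcrl, the receptor chain for calcitonin gene-related peptide (chr2:84330626-84425411), ran the other way, with 7 UMIs at 18 months and 14 at 2 months and a log2 ratio of -1.73 (-3.28 to -0.33). Ramp1, the partner that gives Calcrl its affinity for that peptide, had 242 CPM at 18 months and 218 CPM at 2 months and was not called. Ramp3 and Calcrl were found together in 2 members at 18 months and 1 at 2 months. Of the 8 tested receptor genes for neuropeptides, adrenaline and prostanoids, 1 was higher and 1 lower (3.91% and 8.18% of all tested genes), with a median of 0.15. Nr3c1, the glucocorticoid receptor gene, had 297 CPM at 18 months and 257 CPM at 2 months.

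ILC2 identity genes outside the rule had 7 higher and 3 lower among 25 tested, with a median log2 ratio of 0.12 against -0.10 over all tested genes. Over all tested genes 3.91% were higher and 8.18% lower. Icos, a costimulatory receptor gene (chr1:60977927-61000320), had 225 CPM (188 to 268) at 18 months and 62.8 CPM (38.9 to 96.0) at 2 months, a log2 ratio of 1.84 (1.17 to 2.58). By hashtag it had 137 and 327 CPM at 18 months and 63.9 and 76.4 CPM at 2 months, again without overlap. In T cells Icos had a log2 ratio of -0.69 (-0.88 to -0.50), in NK cells 0.67 (-0.52 to 1.98) and in other Ptprc+ cells 0.11 (-0.05 to 0.28). Klrg1, an inhibitory receptor gene of mature and inflammatory ILC2 (chr6:122270596-122282882), had 222 CPM at 18 months and 102 CPM at 2 months, a log2 ratio of 1.12 (0.57 to 1.72). Klrg1 was also higher at 18 months in NK cells, at 3.31 (2.39 to 4.40), and in other Ptprc+ cells, at 1.56 (1.28 to 1.85), while T cells had 0.30 (-0.18 to 0.80). It was found in 67.1% of members at 18 months and 40.4% at 2 months, and in 30.4% (19.9 to 42.7) and 17.0% (7.65 to 30.8) once each cell was thinned to 2000 UMIs, intervals that overlap. Its call was lost on thinned cells, at 0.80 (-0.37 to 2.10), and with 4 of the 7 genes required, at 0.90 (-0.10 to 2.05). Il17rb, the interleukin-25 receptor gene (chr14:29996135-30008896), had 43 UMIs in 30 members at 18 months and 10 UMIs in 9 members at 2 months, a log2 ratio of 1.37 (0.36 to 2.53), which was 1.30 (-0.07 to 3.01) among members with Xist alone and lost its call under 5 of 12 settings. Other Ptprc+ cells had 0.83 (0.30 to 1.38) for Il17rb. Hes1, a target gene of Notch signalling (chr16:30064384-30067796), had 279 CPM at 18 months and 62.8 CPM at 2 months. Its log2 ratio was 2.15 (1.49 to 2.89), called under all 12 settings. It was found in 27 members at 18 months and 13 at 2 months, and the 5 richest members held 44.3% of its UMIs. On thinned cells it was found in 27.5% (17.5 to 39.6) at 18 months and 12.8% (4.83 to 25.7) at 2 months, intervals that overlap. Hes1 was also higher at 18 months in T cells, at 0.94 (0.69 to 1.21), and in NK cells, at 1.13 (0.38 to 1.93). The other higher ones were Ly6a, which encodes Sca-1, at 687 CPM at 18 months and 314 CPM at 2 months, with Kit and Cysltr1, the leukotriene receptor gene. Kit and Cysltr1 were not called among members with Gata3, Il1rl1 and Il7r, where their log2 ratios were 0.45 and 0.42, nor among members with Xist alone, at 0.80 (-0.16 to 1.89) and 0.84 (-0.07 to 1.88). They lost their calls under 7 and 10 of 12 settings.

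The lower identity genes were Arg1, Bcl11b and Tox. Arg1 (chr10:24915221-24927484) had 267 CPM (226 to 313) at 18 months and 485 CPM (413 to 565) at 2 months, a log2 ratio of -0.86 (-1.19 to -0.53), but -0.37 (-0.82 to 0.10) among members with Xist alone. By hashtag it had 309 and 229 CPM at 18 months and 467 and 618 CPM at 2 months, without overlap, as for 22% of tested genes in this direction. Bcl11b, a transcription factor gene of T cells and ILC2, had 175 CPM at 18 months and 278 CPM at 2 months, a log2 ratio of -0.67 (-1.10 to -0.24). It lost its call under 5 of 12 settings, among them the median-of-ratios scale, at -0.50 (-0.93 to -0.08). Tox, a factor gene of innate lymphoid progenitors, rested on 15 UMIs at 18 months and 20 at 2 months and lost its call under 5 of 12 settings too, at -0.98 (-2.05 to 0.06) on that scale, where Arg1 alone of the 3 was still called. In T cells Arg1 had 0.99 (0.36 to 1.65), Bcl11b 0.28 (0.17 to 0.39) and Tox 0.73 (0.51 to 0.95). Klrg1 and Arg1 were found together in 35 of 70 members at 18 months and 16 of 47 at 2 months, and Arg1 without Klrg1 in 14 and 23. Il7r, Thy1, Lmo4, Id2, Ets1 and Ptprc were not called, with log2 ratios between -0.26 and 0.58.

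**Figure D3:**
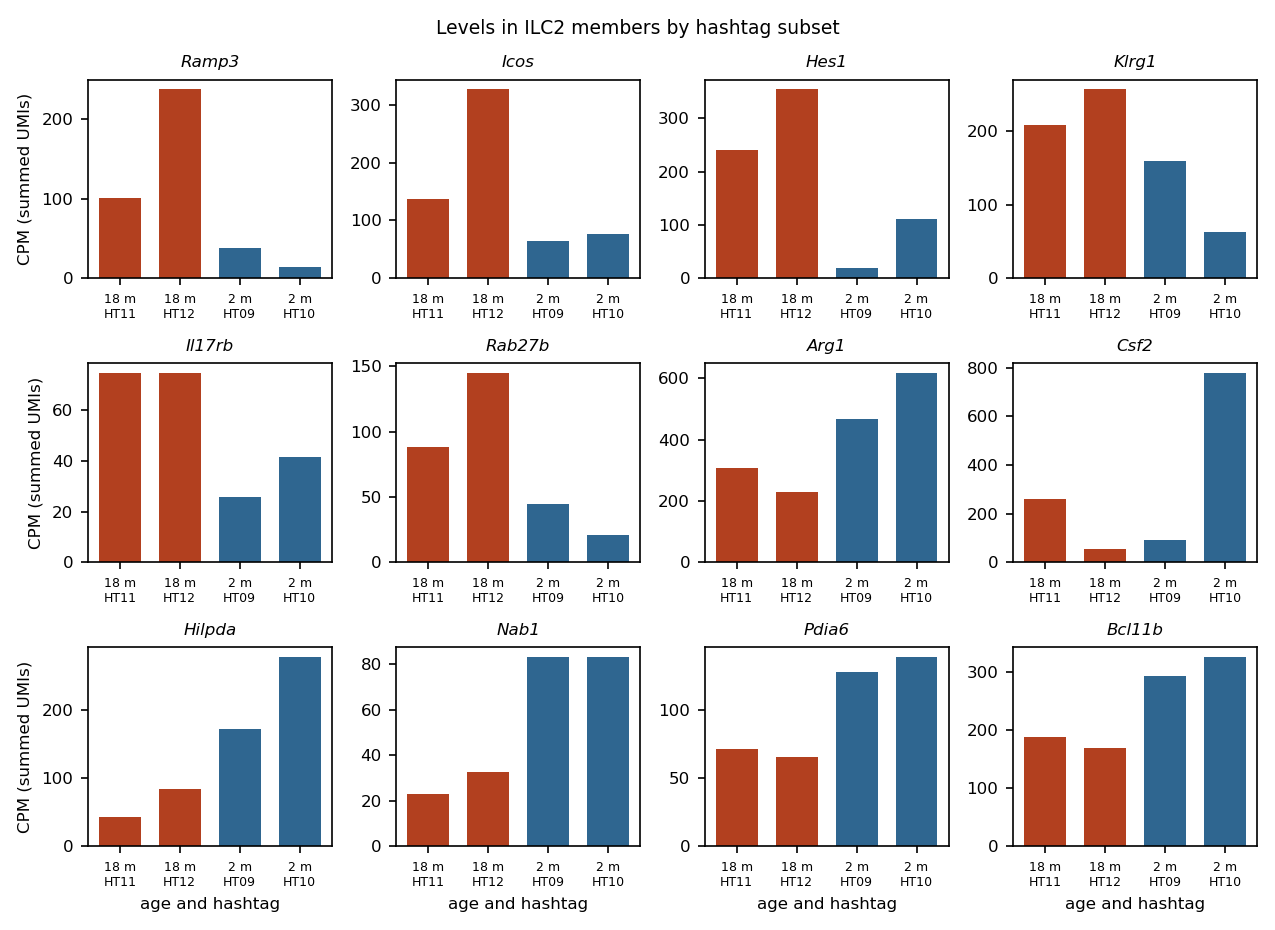
CPM of summed UMIs (y axis, from 0) in members by hashtag antibody (HT), 2 hashtags at 18 months left of 2 at 2 months. Icos had 137 and 327 CPM at 18 months and 63.9 and 76.4 CPM at 2 months, while for Csf2 the ages overlapped.

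Genes of secreted products had 4 higher and 2 lower among 10 tested, against 3.91% and 8.18% of all tested genes, and several were carried by few members. The list median of 0.17 became -1.63 without members holding markers of another type, which left 18 members at 18 months and 8 at 2 months. The lower genes were Csf2 and Ccl5. Ccl5 had 10 UMIs at 18 months and 33 at 2 months, and 1 member held 97.0% of those at 2 months. Il4 (chr11:53602982-53618669) had 23 UMIs in 14 members at 18 months and 2 UMIs in 2 members at 2 months, a log2 ratio of 2.79 (0.78 to 5.92), and 1.79 (-0.27 to 4.94) among members with Xist alone. Its call was lost under 4 of 11 settings, and other Ptprc+ cells had 2.67 (2.14 to 3.24). Among genes of the basophil and mast cell lists, Fcer1a, a chain of the IgE receptor, had 16 UMIs in 8 members at 18 months and 0 at 2 months. Hdc, the gene of the histamine-forming enzyme, had 9 UMIs in 3 members at 18 months, 77.8% of them in 1 member, and 1 UMI at 2 months. Cpa3 went the other way, with 1 UMI at 18 months and 3 at 2 months. Cd200r3 had 1 and 0 UMIs and Gata2 had 2 and 1, while Ms4a2, Mcpt8 and Prss34 had 0 at both ages. The part of such genes in the Il4 values was not tested. Ccl1, the ligand of the ILC2 receptor CCR8, had 223 UMIs at 18 months and 15 at 2 months, but these lay in 6 members at 18 months and 3 at 2 months, and the 5 richest members held 97.9% of them. Csf2, which encodes the growth factor GM-CSF (chr11:54247271-54249667), had 168 CPM at 18 months and 377 CPM at 2 months, a log2 ratio of -1.17 (-1.57 to -0.77), against 1.73 (1.28 to 2.20) in T cells, and -0.33 (-1.17 to 0.52) in members on thinned cells. It was found in 17 members at 18 months and 21 at 2 months, and the 5 richest members held 61.6% of its UMIs. Its CPM by hashtag were 260 and 56.1 at 18 months and 89.5 and 778 at 2 months, so the ages overlapped and 1 hashtag at 2 months carried the level. Tnf and Tgfb1 were not called, with log2 ratios of 0.44 and -0.10, and Il9, Il10 and Penk had no UMI in either library.

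Beside Ramp3, Hes1 and Icos, the genes Eepd1, Rab27b, Espn, Serpinb1a, Arhgef12, Cebpb, Gpr183 and Neat1 were among the 12 highest genes of the naming rule. Rab27b, which encodes a small GTPase of vesicle secretion, had 124 CPM at 18 months and 29.9 CPM at 2 months, a log2 ratio of 2.06 (1.09 to 3.18), and was also higher in other Ptprc+ cells, at 1.13 (0.68 to 1.59), and in NK cells, at 1.70 (0.11 to 3.71). Eepd1 had 54 UMIs in 36 members at 18 months and 5 UMIs in 4 members at 2 months, a log2 ratio of 2.70 (1.39 to 4.38), against 0.89 (0.70 to 1.09) in other Ptprc+ cells and 0.998 (0.38 to 1.65) in T cells. Cebpb, a transcription factor gene, had 429 CPM at 18 months and 153 CPM at 2 months, a log2 ratio of 1.49 (1.05 to 1.96). Cebpb and the long noncoding RNA Neat1 were also higher in other Ptprc+ cells, with log2 ratios of 1.36 and 0.91, whereas Arhgef12, which encodes a guanine nucleotide exchange factor, had -0.10 there against 1.68 (0.88 to 2.59) in members. Gpr183, an oxysterol-guided migration receptor gene, had 269 CPM at 18 months and 120 CPM at 2 months, and its log2 ratio of 1.17 was 0.52 (-0.05 to 1.12) among members with Xist alone. All 12 were also called among members with Gata3, Il1rl1 and Il7r, with log2 ratios from 0.77 for Gpr183 to 2.37 for Ramp3. That set kept 68 of 70 members at 18 months and 37 of 47 at 2 months, so it changed the 18-month side little. The 18-month member rich in cardiomyocyte genes is still in it.

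The 12 lowest genes were Gsn, Hilpda, Mtch1, Nab1, Pdia6, Ccdc50, Lgals1, Sdc4, Zbtb20, Sptbn1, Laptm4a and Igkc. Gsn and Igkc, genes of fibroblasts and plasma cells, had all of their UMIs within the estimated background in both libraries, so their values are not read as levels in members. Hilpda, which encodes a lipid droplet protein induced by low oxygen, had 61.3 CPM (42.4 to 85.6) at 18 months and 200 CPM (155 to 255) at 2 months. Its log2 ratio was -1.71 (-2.35 to -1.09) in all members and -1.91 in the stricter set. It was 0.40 among the 18 members at 18 months and 8 at 2 months not counted as holding markers of another type. Plin2, another lipid droplet gene and the 1 lower gene of 11 tested for lipid uptake and use, had 28.8 CPM at 18 months and 77.8 CPM at 2 months. Over all tested genes 8.18% were lower. Nab1, which encodes a corepressor of the EGR factors, had 27.0 CPM at 18 months and 80.8 CPM at 2 months, a log2 ratio of -1.58 (-2.60 to -0.62). Pdia6, a protein disulfide isomerase gene of the endoplasmic reticulum, had 66.7 CPM at 18 months and 188 CPM at 2 months. Only 8 of the 12 were called among members with Gata3, Il1rl1 and Il7r. Ccdc50, Sdc4, Sptbn1 and Laptm4a were not, with log2 ratios of -0.75, -0.71, 0.06 and -0.34 there, and the fibroblast-marked pair is not in that set.

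**Figure D4:**
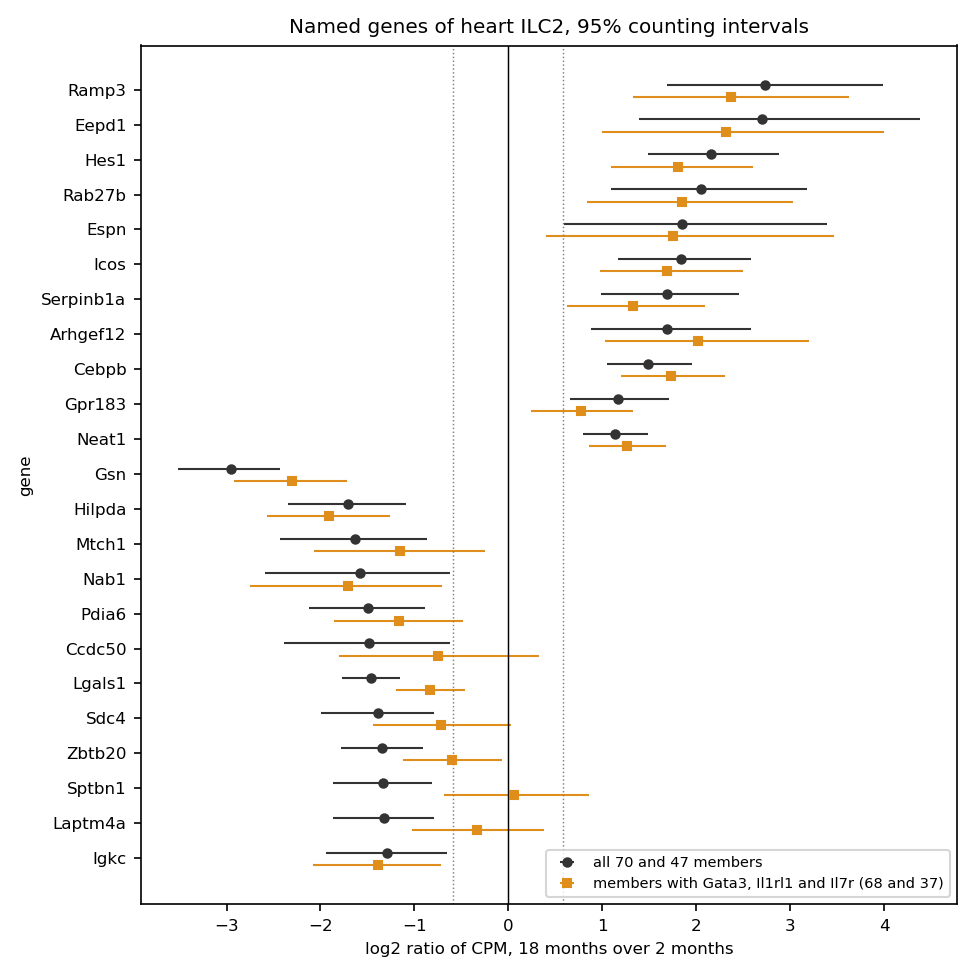
Log2 ratios of CPM, 18 months over 2 months, with 95% counting intervals (x axis) for genes of the naming rule (y axis), in all members (circles) and in members with Gata3, Il1rl1 and Il7r (squares). Dotted lines mark 1.5-fold. The higher genes plotted kept their direction in the stricter set, while Sptbn1 was -1.33 in all members and 0.06 in the stricter set.

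Of 18 tested heat shock proteins and co-chaperones, 8 were lower and 0 higher, against 8.18% and 3.91% of all tested genes, with a median of -0.25. The same list had medians of -0.18 in T cells, -0.25 in NK cells and -0.29 in other Ptprc+ cells. In members the median was -0.08 on the median-of-ratios scale and 0.26 with 4 of the 7 genes required. Fkbp4, an HSP90 co-chaperone gene, had 110 CPM at 18 months and 239 CPM at 2 months, a log2 ratio of -1.12 (-1.63 to -0.62), and -1.19 (-1.72 to -0.65) in the stricter set. Hspa5, the main endoplasmic reticulum chaperone gene, had 429 CPM at 18 months and 790 CPM at 2 months, but its log2 ratio of -0.88 became -0.26 in the stricter set. Immediate early genes, which tissue digestion also induces, had 2 higher and 3 lower among 23 tested, against 3.91% and 8.18% of all tested genes. Jun had 2880 CPM at 18 months and 1879 CPM at 2 months, and Klf4 314 CPM at 18 months and 197 CPM at 2 months, but Jun was not called in the stricter set, at 0.46. Among members with Xist alone neither was called, with log2 ratios of 0.38 for Jun and 0.29 for Klf4. Nr4a2 had 17 UMIs in 6 members at 18 months and 49 UMIs in 10 members at 2 months, a log2 ratio of -2.26 (-3.15 to -1.44). Egr1 had 106 CPM at 18 months and 401 CPM at 2 months, yet 75.7% of its UMIs lay in 5 members, and in the stricter set its log2 ratio of -1.91 turned to 0.83 (-0.01 to 1.76).

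Among 22 tested cytokine receptor and JAK-STAT genes, 3 were higher and 3 lower, with a median of 0.05. Over all tested genes 3.91% were higher and 8.18% lower, and each list count in this paragraph stands beside these shares. Ifngr2 and Ifnar2, chains of the receptors for interferon-γ and type I interferon, had 75.7 and 66.7 CPM at 18 months and 29.9 CPM each at 2 months, and Ifngr2 was not called in the stricter set, at 1.02 (-0.05 to 2.25). Among members with Xist alone neither left out 0, with 2.01 (-0.02 to 5.15) for Ifngr2 and 1.10 (-0.29 to 2.83) for Ifnar2. The target genes of interferon-γ showed no called member among 23 tested, with a median of -0.0039, and type I interferon-stimulated genes had 1 higher and 1 lower of 13. MHC class I and antigen processing genes had 1 higher and 2 lower of 20, and the 5 tested class II genes had 2 lower, and all UMIs of Cd74 lay within the estimated background. NF-κB targets had 0 higher and 3 lower of 15. Of 8 tested tissue residency genes, Rgs2, Cxcr4 and Gpr183 were higher and 0 lower, against 3.91% and 8.18% of all tested genes, with Rgs2, a regulator of G protein signalling, at 1359 CPM at 18 months and 724 CPM at 2 months. Rgs2 reversed to -1.36 (-1.90 to -0.83) without members counted as holding markers of another type. Gpr183 reversed to -0.042 (-1.14 to 1.17) with 4 of the 7 genes required. Cxcr4 was not called in the stricter set, at 1.19 (-0.01 to 2.61), and lost its call under 8 of 12 settings. Among members with Xist alone none of the 3 was called, with log2 ratios of 0.36 for Rgs2, 0.20 for Cxcr4 and 0.52 for Gpr183. Cd69, Rgs1 and Cxcr6 were not called, and the 4 tested recirculation genes had no call. Checkpoint genes had 1 higher of 3, Cd200r1, with 105 CPM at 18 months and 59.8 CPM at 2 months. Its log2 ratio of 0.80 (0.05 to 1.62) lost its call under 6 of 12 settings, among them the authors' filter, at 0.71 (-0.08 to 1.57), and its levels by hashtag overlapped, at 84.5 and 136 CPM at 18 months and 32.0 and 90.3 CPM at 2 months.

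Metabolic lists stayed close to 0. Over all tested genes 3.91% were higher and 8.18% lower, and each count in this paragraph stands beside these shares. No called gene was found among the 13 mitochondrially encoded oxidative phosphorylation genes (median 0.12), and 1 was higher among 45 nuclear ones (median 0.03). Glycolysis had 2 higher of 15, among them Tpi1 at 227 CPM at 18 months and 108 CPM at 2 months, with a median of -0.12. Txnip, which encodes an inhibitor of glucose uptake, had 1370 CPM at 18 months and 643 CPM at 2 months, a log2 ratio of 1.09 (0.87 to 1.32), against 0.06 (-0.0030 to 0.12) in T cells and 0.24 (0.21 to 0.26) in other Ptprc+ cells. Ribosomal protein genes had no call among 88, with a median of 0.18, and CDK inhibitor, p53 target and survival genes none among 12. Cell cycle genes had 1 lower of 5 tested and 15 of the 20 listed were too scarce to test.

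**Figure D5:**
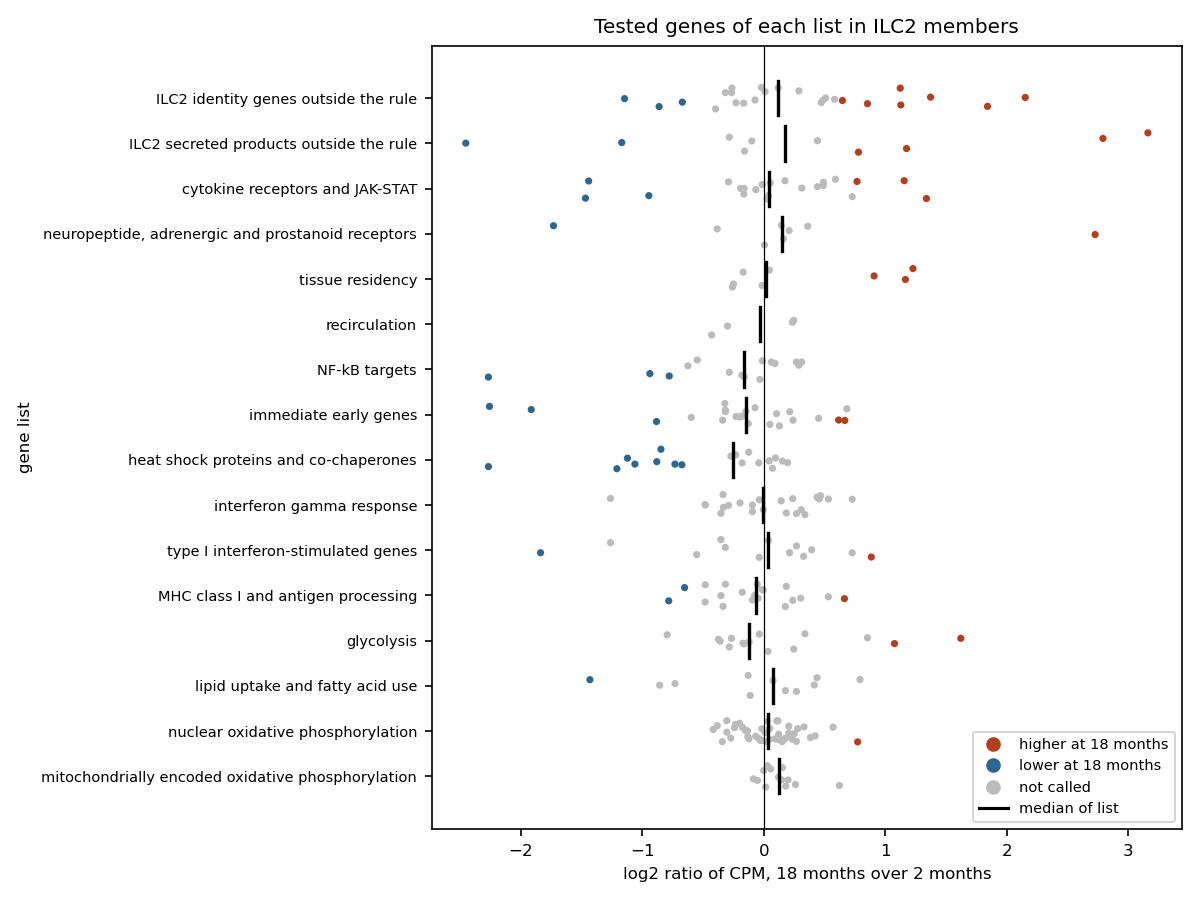
Log2 ratios of CPM, 18 months over 2 months (x axis), of every tested gene in 16 lists (y axis), coloured by call, with a black bar at each list's median. Identity genes had 7 higher and 3 lower genes, heat shock genes 0 and 8, and interferon-γ response genes 0 and 0. Over all tested genes 3.91% were higher and 8.18% lower.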

How the data were processed

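Members and gene lists were chosen with earlier results of these data known. Counts (UMIs) per gene and barcode were deposited by the authors, unscaled; the file headers name Cell Ranger 3.1.0 and the submitters' processing notes mm10 and GRCm38. The authors' deposited text names Seurat 4.0.6 and excludes cells under 200 genes, over 15000 UMIs or over 8% mitochondrial UMIs, a filter run here as an alternative. The main filter required 200 genes and allowed 15% mitochondrial UMIs. UMIs were summed over the members of a library and scaled to CPM, with exact Poisson intervals. Log2 ratios carry exact conditional binomial intervals, and a gene needed 20 UMIs. The calculation was tested on simulated sums that held counting error only. Clustering of UMIs in a few cells was not simulated, so that test does not cover its effect on the calls. With 1 library per age and no number of animals given, no p was computed. Doublets stayed in the main values: Scrublet in Scanpy 1.11.5, at an expected rate of 8%, called 219 cells at 18 months and 478 at 2 months, of which 3 and 0 were members.

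The 24 genes named by rule were the 12 highest and 12 lowest ratios with at least 50 CPM in 1 library, 40 UMIs and 10 cells, under 50% of UMIs in the 5 richest cells and an interval beyond 1.5-fold. Rule, mitochondrial, ribosomal, haemoglobin, receptor variable, sex-linked and predicted genes were left out of them, and 1 of the 24 is not reported here. Genes of the lists are named besides, and Txnip, Tcrg-C4, Tcrg-C1 and Nkg7 were chosen after their values were seen. Estimated background is the library's profile at the median marker level given in the text. T cells held 2 of Cd3d, Cd3e and Cd3g, and NK cells held 2 of Ncr1, Klrb1c, Klre1 and Eomes and none of these. A hashtag was assigned at 50 counts and 5 times the other one, and the labels do not say what a hashtag marks. Gene positions are those of the GENCODE annotation for GRCm38. Lymph node samples were not analysed here. Software was Matplotlib 3.10.9, pandas 2.3.3, scikit-learn 1.9.0, SciPy 1.17.1 and NumPy 2.4.6 under Python 3.11.15.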

Additional observations from a re-analysis of the deposited data

Results flagged for a closer look

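Hashtag antibody counts, outside the gene counts on which the comparisons rest, were assigned in 67 of 70 members at 18 months and 45 of 47 at 2 months. This exceeded the 52.0% of all kept cells at 18 months and 26.7% at 2 months, and the 83.4% and 77.5% of other Ptprc+ cells. No control sample without antibody was used here.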

How the results depend on the processing

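No paired analysis was possible because each age is 1 library. Under 15 alternative settings, 692 values stayed within the main interval, or near the main value for counts and list medians. Another 170 moved beyond that, which need not change their sign, and 13 called values reversed sign. A value that stayed could still lose its call. The count of higher genes, 201, became 110 with at least 4 of the 7 genes per cell, 38 without members holding markers of another type (18 and 8 members left), 59 with cells thinned to 2000 UMIs, 322 on the median-of-ratios scale and 111 at 50 UMIs per gene. The count of lower genes, 420, became 120, 65, 93, 264 and 213 under the same 5 settings, 267 with Ptprc and an identity gene required, and 807 with no minimum of UMIs. Under settings chosen after seeing the data, higher genes numbered 117 among members with Xist alone and 123 without the 5 members per library richest in markers of other lineages. Lower genes then numbered 217 and 226, 228 among members with Gata3, Il1rl1 and Il7r, and 703 with 1 UMI allowed in each excluding gene. The log2 ratio of the share, 1.08, was 1.67 without members holding markers of another type, 2.03 among cells with Xist alone and 0.37 among cells with Ptprc.

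Egr1 reversed to 1.01 under the authors' filter, 2.39 with 4 genes, 0.98 without other-type markers, 0.93 with Ptprc and an identity gene, 0.83 with Gata3, Il1rl1 and Il7r, and 0.97 without the 5 richest members. With 4 genes Gpr183 was -0.042. Without other-type markers Hilpda was 0.40, Lgals1 0.36, Sptbn1 0.78 and Rgs2 -1.36. Sptbn1 was 0.063 with Gata3, Il1rl1 and Il7r, and 0.14 without the 5 richest members. Settings that drop members or raise the minimum test fewer genes; other causes were not tested.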

Other observations

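Nkg7, a cytotoxic granule gene of killer lymphocytes, was chosen after its values were seen. It had 56 UMIs in 18 members at 18 months and 8 UMIs in 2 members at 2 months, a log2 ratio of 2.08. Among members with Gata3, Il1rl1 and Il7r it had 56 UMIs at 18 months and 0 at 2 months. The 5 richest members held 53.1% of its UMIs. Nkg7 was also higher at 18 months in T cells, at 0.66 (0.58 to 0.75), NK cells, at 1.08 (0.93 to 1.22), and other Ptprc+ cells, at 1.41 (1.34 to 1.48). Of the 12 NK markers, 8 had no UMI in members at 18 months, among them Ncr1, Klrb1c and Eomes. Besides Nkg7, Ccl5 had 10 UMIs there, Prf1 3 and Gzma 2.

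By hashtag, 11 of the 12 highest named genes stood higher in both 18-month subsets than in both 2-month ones, a pattern found in 14.2% of tested genes, and all 12 lowest stood lower, a pattern found in 22% of them. These genes were chosen for the same difference, so nothing is read from the counts.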
